A study of Mus musculus with 9 samples.

Results

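The creatine kinase and energy transfer genes were 9 genes of a table of 21989 gene symbols. The choice was by name, made with earlier results of these data known. The members were the creatine kinases Ckm, Ckmt2 and Ckb, the creatine transporter Slc6a8, the adenine nucleotide carriers Slc25a4 and Slc25a5, the mitochondrial phosphate carrier Slc25a3, the outer membrane channel Vdac1 and the adenylate kinase Ak1. They were measured by sequencing poly-A RNA of whole hearts. The mice were male, of the strain C57BL/6J and, by the labels, 18 to 20 weeks of age, and they formed 3 groups of 3. The LD mice had the operation labelled TAC, which commonly stands for transverse aortic constriction and loads the left ventricle with pressure, and were given Lingguizhugan decoction, a Chinese herbal preparation. The TAC mice had the same operation and were given distilled water. The sham mice had a sham operation and were given distilled water. No group held sham-operated mice given the decoction, and the sources used here give no dose, no time since the operation and no measure of heart function.

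In heart muscle, ATP made in the mitochondrial matrix leaves through adenine nucleotide carriers of the inner membrane, and mitochondrial creatine kinase uses it to charge creatine to phosphocreatine. Phosphocreatine reaches the contractile filaments, where cytosolic creatine kinase turns it back into ATP. Creatine itself is not made in the heart to any large extent and is taken up from blood by the creatine transporter. This system is known for its loss of capacity in failing hearts, which is why its genes are of interest under pressure overload.

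Library totals recovered from the deposited values lay between 4.47 and 18.0 M fragments, where the totals of 4 libraries depend on whether steps of 0.5 fragments are read as such. Across genes, Pearson's r between replicates was 0.913 to 0.973. TAC replicate 3 and LD replicate 3 stood at opposite ends of the first principal component, at -51.0 and 48.3, while the other libraries lay between -10.4 and 17.1. The labelled tissue was matched by its markers: Tnnt2, cardiac troponin T, ranged from 10100 to 19032 FPKM (fragment number scaled to gene length and to library size). Of 10 skeletal muscle markers, the fast myosins Myh1 and Myh2 were listed at 0 in every library. Others were detected at low levels, and 5 of the 10 reached an FPKM of 1 in 3 or more libraries. The 10 together summed to 2.38 to 11.7 FPKM a library. Because whole tissue was sequenced, fewer cells of a type and less RNA per cell cannot be told apart.

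The members spanned a wide range of levels, and their order changed little between libraries. By mean FPKM, which is scaled by gene length, Slc25a4 (7615) ranked 7th of the whole table, Ckm (3908) 14th and Ckmt2 (2192) 32nd. Below them came Slc25a3 (646), Vdac1 (239), Ak1 (143), Ckb (138), Slc25a5 (114) and Slc6a8 (29.5). Each of the first 5 members lay above the next one in 9 of 9 libraries, by a median of 1.82 times for Slc25a4 over Ckm and 1.94 times for Ckm over Ckmt2. Ak1 and Ckb were not separated in FPKM: Ak1 was the higher in 6 of 9 libraries, with a median ratio of 1.05, and their ranges overlapped. Ckb lay above Slc25a5 in 8 of 9 libraries, and their ranges overlapped. Slc25a5 stood above Slc6a8 in 9 of 9. The gene lengths behind the deposited values differed unevenly from the combined lengths of the annotated exons. They were 1417 against 2913 bases for Ckm, 1527 against 1486 for Ckmt2, 1678 against 5550 for Slc25a3 and 3989 against 2593 for Ak1. Ranks, ratios and shares between genes therefore depend on the lengths used, and another choice could change the order. The 9 genes together made up 2.67, 2.82 and 2.75% of the FPKM sum in LD replicates 1, 2 and 3, 2.57, 2.65 and 2.72% in TAC and 2.77, 3.13 and 2.75% in sham. TAC libraries were thus all below sham libraries, by a narrow margin. The means were 2.75 ± 0.0723% in LD, 2.65 ± 0.0770% in TAC and 2.88 ± 0.214% in sham (SD, n = 3 each). The difference of -0.236 percentage points between TAC and sham had a two-sided exact permutation p of 0.1, the smallest that 3 against 3 can give. Between LD and TAC it was 0.101 (exact p = 0.2), and between LD and sham -0.135 (exact p = 0.5). Without sham replicate 2, the highest library, the TAC against sham difference was -0.112 and the LD against sham difference -0.012. The summed level of 6 erythroid markers was 1205 to 2274 FPKM in LD, 2238 to 11052 FPKM in TAC and 516 to 3343 FPKM in sham, and the 5 of them that were tested had a median log2 difference of 1.39 in TAC against sham, all above 0. With haemoglobin genes left out of the sum, the members' share averaged 2.76% in LD, 2.67% in TAC and 2.89% in sham, and the TAC against sham difference was -0.220.

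No member passed in any comparison. Differences were tested on log2(FPKM + 1) with limma, a linear model that shares information on the spread across genes, at a Benjamini-Hochberg adjusted p under 0.05 over the 11380 genes that reached an FPKM of 1 in 3 or more libraries, as all 9 members did. Over all tested genes limma called 0 genes (0%) in TAC against sham, 0 (0%) in LD against TAC and 0 (0%) in LD against sham. At an unadjusted p under 0.05 there were 618 genes (5.43%) in TAC against sham, 1004 (8.82%) in LD against TAC and 581 (5.11%) in LD against sham, and the members numbered 0 in each. With voom on the recovered fragments the adjusted counts were also 0. The members' adjusted p lay between 0.997 and 1 in TAC against sham, between 0.652 and 0.995 in LD against TAC, and between 0.902 and 0.999 in LD against sham. A moderated F test over the 3 groups gave adjusted p values from 0.837 (Vdac1) to 0.986 (Slc25a5). Over all members, the 95% confidence intervals of the fold ran from 0.570 (Ak1) to 1.54 (Vdac1) in TAC against sham and from 0.555 (Vdac1) to 1.69 (Ckm) in LD against TAC. In LD against sham they ran from 0.602 (Vdac1) to 1.49 (Slc25a5).

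**Figure D1:**
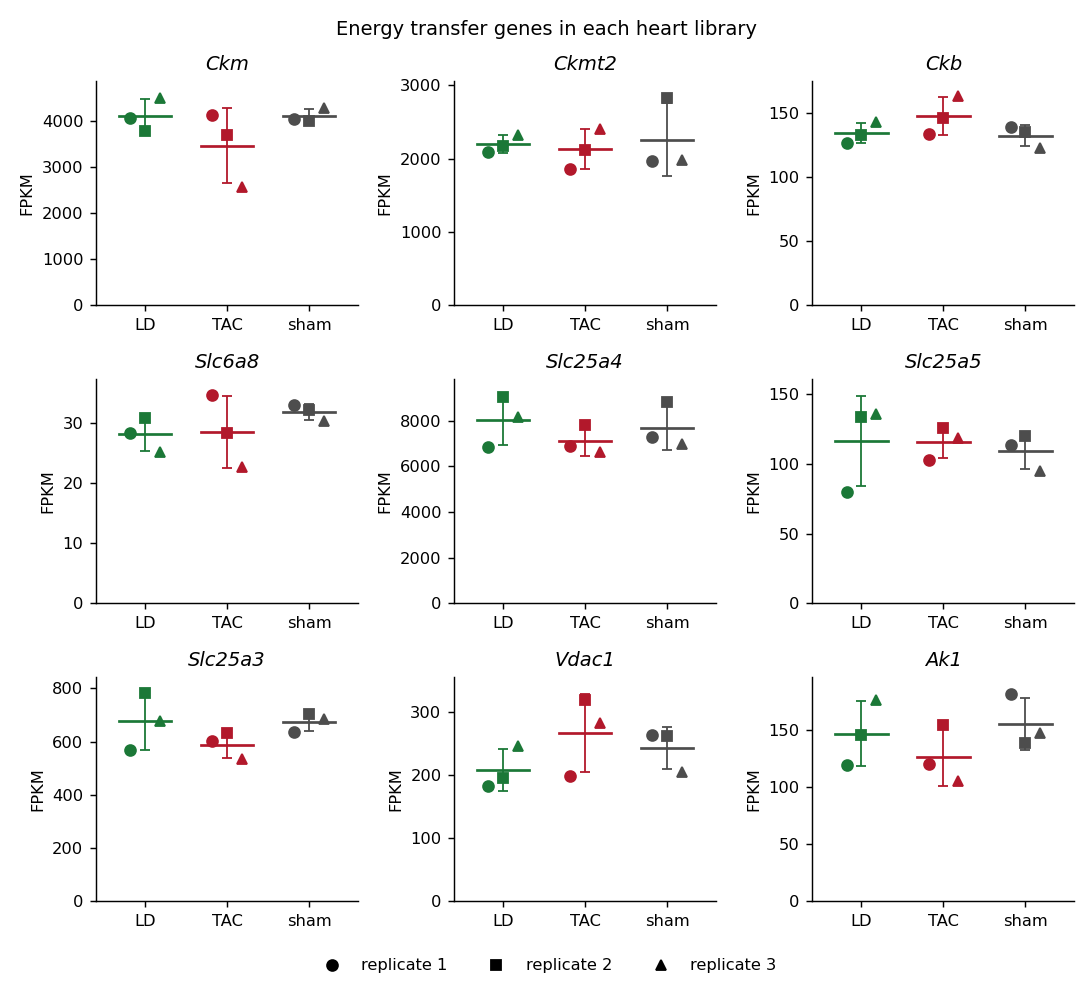
FPKM of each of the 9 genes (vertical axes, starting at 0) in the LD, TAC and sham libraries; each symbol is 1 mouse, horizontal bars are group means and error bars are SDs over 3 mice. Groups overlap for every gene in every comparison except Slc25a3, whose 3 TAC values (534 to 631 FPKM) lie below its 3 sham values (634 to 702 FPKM).

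Ckm encodes the cytosolic muscle form of creatine kinase, which sits at the M-band of the sarcomere among other places. Its gene lies at chr7:19404776-19422841 on the plus strand of GRCm38, and the annotated antisense gene A930016O22Rik overlaps its exons on the opposite strand; it is not a row of the table, and no step that keeps the strand is named in the labels. Ckm had 4085, 3799 and 4507 FPKM in LD hearts 1 to 3, 4136, 3716 and 2577 FPKM in TAC hearts and 4044, 4015 and 4297 FPKM in sham hearts. TAC replicate 3 had the lowest value of the 9, TAC replicate 2 also lay below all LD and sham values, and TAC replicate 1 lay inside the range of both. The means were 4130 ± 357 FPKM in LD, 3476 ± 806 in TAC and 4119 ± 155 in sham (SD, n = 3 each). On the log2 scale TAC differed from sham by -0.27 ± 0.23 (SE; adjusted p = 0.997), a fold of 0.828 with an interval of 0.592 to 1.16. LD differed from TAC by 0.27 ± 0.23 (adjusted p = 0.696) and from sham by 0.00 ± 0.23 (adjusted p = 0.999). Without TAC replicate 3 the first of these was -0.07 and the second 0.07. That library also had the lowest summed level of 12 cardiomyocyte markers, 52260 FPKM against 65375 and 68555 in the other TAC libraries. Its FPKM sum over all genes was lowest as well, 471009 against 547427 and 568485, so these marker levels are not on an equal scale. Ckm made up 0.547% of that sum, against 0.755 and 0.654%. TAC replicate 3 had the fewest recovered fragments, 4.47 M, a total that depends on how its steps are read. It also had the lowest quality weight, 0.388, close to 0.397 in LD replicate 3 and beside 0.528 in TAC replicate 1. The part of cell content or depth in the Ckm value of TAC replicate 3 was not tested.

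Ckmt2 encodes the sarcomeric mitochondrial creatine kinase of the intermembrane space (chr13:91853387-91876885, minus strand), and its exons overlap the antisense gene 1700119I11Rik. It had 2084, 2173 and 2325 FPKM in LD hearts, 1861, 2109 and 2408 FPKM in TAC hearts and 1960, 2828 and 1980 FPKM in sham hearts. The highest single value was sham replicate 2, and the LD values lay inside the range of both other groups. TAC differed from sham by -0.07 ± 0.22 (SE; adjusted p = 0.9997) and LD from TAC by 0.05 ± 0.22 (adjusted p = 0.953). The LD against sham difference was -0.02 ± 0.22 (adjusted p = 0.990), with a fold interval of 0.711 to 1.37. TAC replicate 3 thus held the lowest Ckm and the highest Ckmt2 of its group.

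Ckb, the brain form, is cytosolic and is found in many cell types other than working muscle (chr12:111669361-111672338, minus strand); the annotation holds the copies Ckb-ps1 and Ckb-ps2, and reads shared with them could have been split by the counting. It had 127, 133 and 143 FPKM in LD hearts, 134, 146 and 163 FPKM in TAC hearts and 139, 135 and 123 FPKM in sham hearts. TAC replicate 3 was the highest library, and TAC replicate 1 lay inside the sham range, so the groups overlapped. TAC differed from sham by 0.15 ± 0.20 (SE; adjusted p = 0.999), LD from TAC by -0.13 ± 0.20 (adjusted p = 0.839) and LD from sham by 0.02 ± 0.20 (adjusted p = 0.988). Its fold interval in TAC against sham was 0.827 to 1.49. The summed level of 10 fibroblast markers was 1127 to 1724 FPKM in LD, 1555 to 2475 FPKM in TAC and 1001 to 1197 FPKM in sham, and all 10 markers had log2 differences above 0 in TAC against sham (median 0.64). Of these, 5 had an unadjusted p under 0.05 and 0 passed after adjustment. The part of such cells in the Ckb values was not tested.

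Ckm and Ckb are paralogs, and the FPKM of Ckm was 15.8 to 34.9 times that of Ckb. To set their start regions side by side, the 250 bases before the start that RefSeq gives each gene on GRCm38.p6 are shown 5′ to 3′ on the strand of the gene. The Ckb start is also the edge of the gene's GENCODE interval, while that of Ckm (base 19411094) lies inside its interval, which begins at base 19404776. Capitals mark matches, on either strand, to the E-box (CANNTG), the CCAAT box (CCAAT), the GC box (GGGCGG), the TATA box (TATAAA), the nuclear receptor motif (AAGGTCA), the MEF2 site and the CArG box.
Ckm, chr7:19410844-19411093, plus strand: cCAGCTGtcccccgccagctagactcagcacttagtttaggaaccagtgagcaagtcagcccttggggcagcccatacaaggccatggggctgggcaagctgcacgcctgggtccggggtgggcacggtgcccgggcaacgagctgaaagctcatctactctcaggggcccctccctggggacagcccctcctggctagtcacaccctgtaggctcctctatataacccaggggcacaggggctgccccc
Ckb, chr12:111672339-111672588, minus strand: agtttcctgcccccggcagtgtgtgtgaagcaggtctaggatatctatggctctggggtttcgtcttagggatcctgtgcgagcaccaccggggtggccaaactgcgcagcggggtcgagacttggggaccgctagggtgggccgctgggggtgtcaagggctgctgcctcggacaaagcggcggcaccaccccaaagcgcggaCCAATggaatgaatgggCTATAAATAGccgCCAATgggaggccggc
The Ckm window held 1 E-box, at -249 from the start, and no other match; positions are those of the first base of a match, with -1 the last base before the start. The Ckb window held CCAAT boxes at -46 and -16 and a TATA box at -28, which overlaps its match to the MEF2 site at -29. Among 32851 such windows in the RefSeq table, an E-box was present in 66.2%, a CCAAT box in 33.8%, a GC box in 32.7% and a TATA box in 12.4%. A MEF2 site was present in 2.92%, a CArG box in 1.47% and a nuclear receptor motif in 4.08%. The Ckm window had 6 CpG dinucleotides and the Ckb window 16, against a median of 6 over all windows. These matches are letters in a window and say nothing of binding.

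Within each library the 3 creatine kinases could be set against each other without any effect of scaling between libraries. Their shares still depend on the gene lengths used. Ckm gave 64.9, 62.2 and 64.6% of their summed FPKM in LD hearts, 67.5, 62.2 and 50.1% in TAC hearts and 65.8, 57.5 and 67.1% in sham hearts. Ckmt2 gave 33.1 to 35.6% in LD, 30.4 to 46.8% in TAC and 30.9 to 40.5% in sham, and Ckb gave 2.02 to 2.17% in LD, 2.18 to 3.17% in TAC and 1.92 to 2.26% in sham. Ckm thus stayed within 62.2 to 64.9% in the LD hearts, and TAC replicate 3 was the one library in which Ckm and Ckmt2 were nearly equal in FPKM. The mean log2 ratio of Ckb to Ckm was -4.54 ± 0.50 in TAC hearts and -4.96 ± 0.14 in sham hearts (SD, n = 3 each), a difference of 0.43 (two-sided exact permutation p = 0.3, adjusted over the 4 ratios tested 0.533). For LD against TAC it was -0.41 (exact p = 0.2, adjusted 0.4) and for LD against sham 0.02 (exact p = 0.8, adjusted 1). Without TAC replicate 3 the first of these was 0.15 and the second -0.13. Ckmt2 to Ckm differed by 0.20 between TAC and sham (exact p = 0.7), by -0.22 between LD and TAC (exact p = 0.8) and by -0.02 between LD and sham (exact p = 1), and without TAC replicate 3 the first was -0.10 and the second 0.07. With 3 libraries a group, no ratio could reach an exact p below 0.1.

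**Figure D2:**
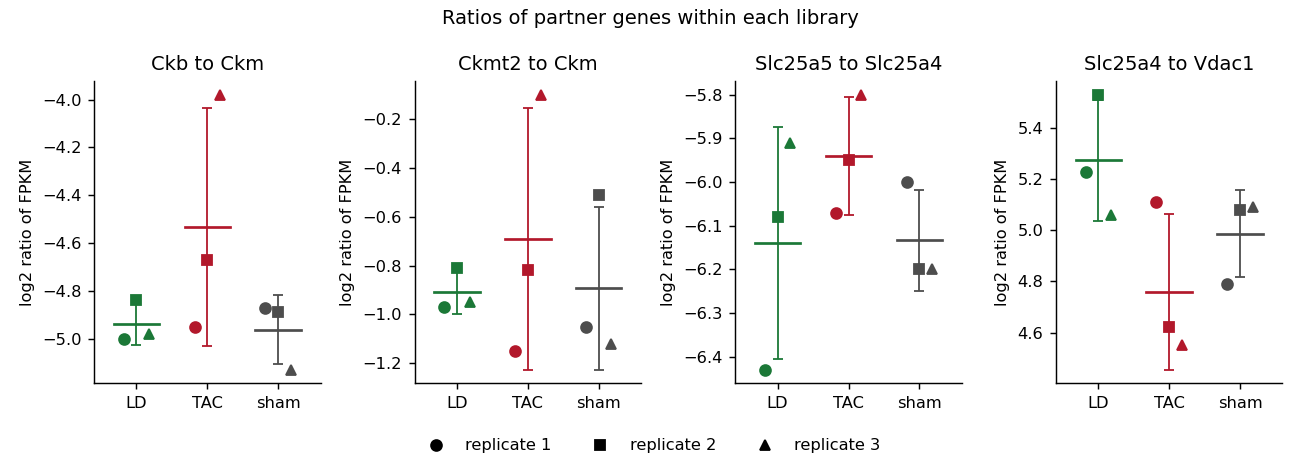
Log2 ratio of FPKM of 2 genes within each library (vertical axes, each with its own scale and not starting at 0) in LD, TAC and sham hearts; symbols are mice, horizontal bars group means and error bars SDs over 3 mice. TAC replicate 3 has the highest Ckb to Ckm and Ckmt2 to Ckm ratios of the 9 libraries, and the 3 LD replicates lie close together in both ratios.

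Slc6a8 carries creatine into the cell together with sodium and chloride (chrX:73673150-73682502, plus strand). It was the lowest of the 9 genes and rested on 406 to 2219 recovered fragments a library. It had 28.3, 30.8 and 25.2 FPKM in LD hearts, 34.6, 28.3 and 22.7 FPKM in TAC hearts and 33.0, 32.2 and 30.4 FPKM in sham hearts. The sham values lay close together, and the TAC values spread above and below them. TAC differed from sham by -0.17 ± 0.23 (SE; adjusted p = 0.999), LD from TAC by -0.01 ± 0.23 (adjusted p = 0.995) and LD from sham by -0.18 ± 0.23 (adjusted p = 0.912). Without TAC replicate 3 the first value was -0.02.

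The adenine nucleotide carriers exchange ATP of the matrix for ADP. Slc25a4 (chr8:46206797-46211284, minus strand), the form of heart and skeletal muscle, had 6870, 9062 and 8187 FPKM in LD hearts, 6881, 7826 and 6620 FPKM in TAC hearts and 7297, 8813 and 6981 FPKM in sham hearts. The highest LD and sham values were above all TAC values, while the lowest of each group lay close together. TAC differed from sham by -0.11 ± 0.22 (SE; adjusted p = 0.9997), LD from TAC by 0.17 ± 0.22 (adjusted p = 0.799) and LD from sham by 0.06 ± 0.22 (adjusted p = 0.968). Slc25a5 (chrX:36795651-36798807, plus strand), a form expressed in many tissues, had 79.7, 134 and 136 FPKM in LD hearts, 103, 126 and 119 FPKM in TAC hearts and 114, 120 and 95.1 FPKM in sham hearts. LD replicate 1 was the lowest library and the other LD libraries the highest. The annotation holds the copy Slc25a5-ps, whose reads the counting could have shared. For Slc25a5, TAC differed from sham by 0.08 ± 0.24 (SE; adjusted p = 0.9997), LD from TAC by -0.03 ± 0.24 (adjusted p = 0.978) and LD from sham by 0.05 ± 0.24 (adjusted p = 0.977), and without LD replicate 1 the LD against TAC value was 0.22.

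Slc25a4 gave 98.2 to 98.9% of the summed FPKM of this pair in every library, 55.6 to 86.2 times the level of Slc25a5. Their start regions, shown for the same reason and with the same marks as those of the creatine kinases, follow. The RefSeq start of Slc25a4 (base 46211062) lies inside its GENCODE interval and that of Slc25a5 (base 36795597) before its interval.
Slc25a4, chr8:46211063-46211312, minus strand: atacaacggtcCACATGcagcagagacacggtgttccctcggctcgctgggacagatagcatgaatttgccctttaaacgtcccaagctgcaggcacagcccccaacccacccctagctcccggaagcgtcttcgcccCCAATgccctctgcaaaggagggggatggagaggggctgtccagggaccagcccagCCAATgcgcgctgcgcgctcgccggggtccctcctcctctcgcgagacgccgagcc
Slc25a5, chrX:36795347-36795596, plus strand: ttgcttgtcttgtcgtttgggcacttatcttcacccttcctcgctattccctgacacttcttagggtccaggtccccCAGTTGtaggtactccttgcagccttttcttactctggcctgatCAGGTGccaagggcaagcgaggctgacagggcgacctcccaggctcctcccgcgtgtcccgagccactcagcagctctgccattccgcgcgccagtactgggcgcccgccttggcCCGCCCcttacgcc
The Slc25a4 window held an E-box at -239 and CCAAT boxes at -112 and -56, with 18 CpG dinucleotides. The Slc25a5 window held E-boxes at -173 and -129 and a GC box at -14, with 14 CpG dinucleotides. Neither held a match to the TATA box, the MEF2 site, the CArG box or the nuclear receptor motif. The log2 ratio of Slc25a5 to Slc25a4 averaged -5.94 ± 0.14 in TAC hearts and -6.13 ± 0.11 in sham hearts (SD, n = 3 each), a difference of 0.19 (exact permutation p = 0.2, adjusted 0.533). In LD hearts the ratio averaged -6.14 ± 0.27, which differed by -0.20 from TAC (exact p = 0.4) and by -0.01 from sham (exact p = 1).

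Slc25a3 brings phosphate into the matrix for ATP synthesis (chr10:91116574-91124059, minus strand). It had 569, 782 and 676 FPKM in LD hearts, 601, 631 and 534 FPKM in TAC hearts and 634, 702 and 685 FPKM in sham hearts. All TAC values were below all sham values, although TAC replicate 2 was only just below sham replicate 1. Such a gap towards lower values in TAC was found in 4.62% of all tested genes and one towards higher values in 5.22%, and among the 9 members it was found in 1. TAC averaged 589 ± 49.7 FPKM and sham 674 ± 35.5 FPKM (SD, n = 3 each), a log2 difference of -0.20 ± 0.20 (SE; adjusted p = 0.997) and a fold of 0.872 with an interval of 0.643 to 1.18. LD differed from TAC by 0.19 ± 0.20 (adjusted p = 0.767) and from sham by -0.01 ± 0.20 (adjusted p = 0.996), and the LD values overlapped both groups. No other gap between groups was found among the members: in LD against TAC such gaps were present in 3.73% of tested genes towards higher and 8.14% towards lower values, and in LD against sham in 4.47% and 8.76%.

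Vdac1 forms the pore through which ATP, ADP and creatine phosphate cross the outer mitochondrial membrane (chr11:52360860-52389397, plus strand). It had 182, 196 and 246 FPKM in LD hearts, 199, 318 and 282 FPKM in TAC hearts and 264, 261 and 205 FPKM in sham hearts. TAC replicates 2 and 3 were the highest libraries, TAC replicate 1 lay beside the lower LD values, and the groups overlapped. The means were 208 ± 33.6 FPKM in LD, 267 ± 61.0 in TAC and 243 ± 33.3 in sham (SD, n = 3 each). LD differed from TAC by -0.34 ± 0.24 (SE; adjusted p = 0.652), the smallest p of any member in any comparison, and its fold of 0.789 had an interval of 0.555 to 1.12. TAC differed from sham by 0.12 ± 0.24 (adjusted p = 0.9997) and LD from sham by -0.23 ± 0.24 (adjusted p = 0.902). Leaving out TAC replicate 1 gave 0.31 for TAC against sham, leaving out TAC replicate 2 gave -0.025, and -0.003 was found with sham replicate 3 removed. The median of all tested genes was itself -0.103 in LD against TAC and -0.109 in LD against sham, and after median-of-ratios scaling, which brought these medians to 0.011 and -0.005, the Vdac1 differences were -0.20 and -0.10. The ratio of Slc25a4 to Vdac1 FPKM was 37.6, 46.3 and 33.3 in LD hearts, 34.5, 24.6 and 23.5 in TAC hearts and 27.7, 33.8 and 34.1 in sham hearts. The log2 ratio of the pair differed by 0.51 between LD and TAC (exact permutation p = 0.2, adjusted 0.4), by -0.23 between TAC and sham (exact p = 0.4, adjusted 0.533) and by 0.29 between LD and sham (exact p = 0.3, adjusted 1). An exact permutation test of this ratio over the 280 ways to form 3 groups gave p = 0.0786, adjusted over the 4 ratios 0.278. This was the smallest of the 4: the same test gave 0.139 for Ckb to Ckm, 0.393 for Slc25a5 to Slc25a4 and 0.814 for Ckmt2 to Ckm. For the members' share of FPKM it gave 0.146.

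Ak1, the cytosolic adenylate kinase of muscle, interconverts ATP, ADP and AMP (chr2:32621758-32635058, plus strand). It had 119, 145 and 176 FPKM in LD hearts, 120, 154 and 105 FPKM in TAC hearts and 181, 138 and 147 FPKM in sham hearts. The 2 lowest values of the 6 TAC and sham libraries were TAC replicates 3 and 1, while TAC replicate 2 was above 2 of the sham libraries. TAC differed from sham by -0.31 ± 0.23 (SE; adjusted p = 0.997), the smallest p of the members in that comparison, a fold of 0.808 with an interval of 0.570 to 1.14. LD differed from TAC by 0.22 ± 0.23 (adjusted p = 0.767) and from sham by -0.09 ± 0.23 (adjusted p = 0.956). Without both TAC replicate 3 and LD replicate 3, the LD against TAC value was -0.04.

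**Figure D3:**
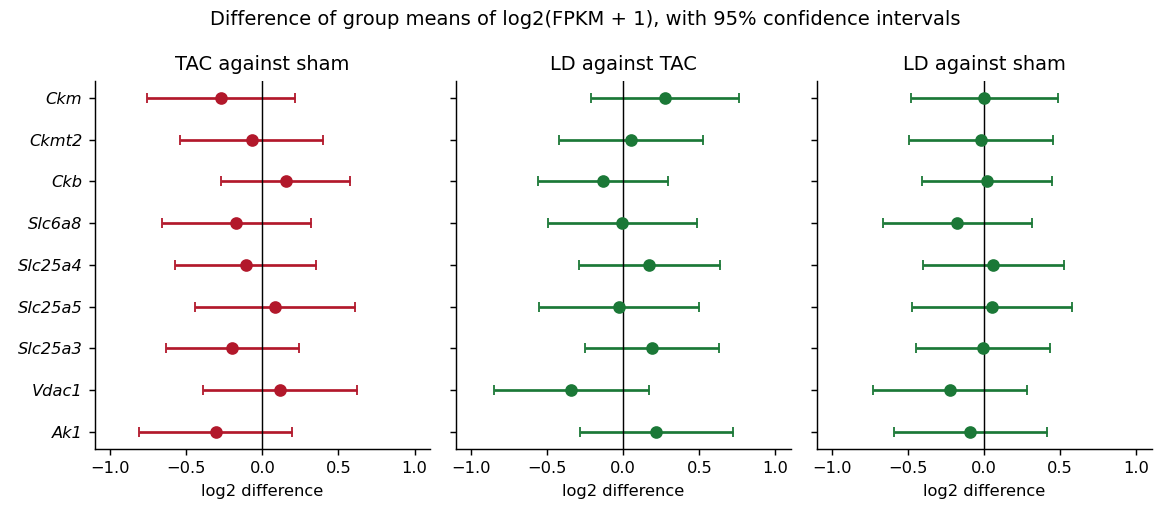
Log2 differences of the group means of log2(FPKM + 1) for the 9 genes (points) with 95% confidence intervals (bars), in TAC against sham, LD against TAC and LD against sham; a value above 0 is higher in the group named first. Every interval includes 0, and the points lie between -0.34 (Vdac1, LD against TAC) and 0.27 (Ckm, LD against TAC).

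Over the 9 genes, 3 log2 differences were above 0 and 6 below in TAC against sham (median -0.111), while all tested genes had a median of 0 with 50% above 0. In LD against TAC 5 were above and 4 below 0 (median 0.052), with 39.6% of all tested genes above 0. In LD against sham 4 were above and 5 below (median -0.007), with 37.2% of all tested genes above 0. The LD counts depend on the scaling between libraries. With median-of-ratios scaling, Ckb (0.008), Slc6a8 (0.130) and Slc25a5 (0.114) turned above 0 in LD against TAC, leaving only Vdac1 (-0.199) below. Ckm rose to 0.415 there. With libraries scaled to equal FPKM sums, Ckmt2 turned below 0 (-0.058) and Ckm fell to 0.163. Signs in LD against sham also changed under each scaling. The TAC hearts enter the first pair of comparisons on opposite sides, so opposite signs of a member in them are not separate observations, and the sham hearts are shared by the first and the last. The 12 cardiomyocyte markers had a median of -0.06 in TAC against sham, with 8 of them below 0, and of 0.232 in LD against TAC, with 9 above 0. Their summed level was 65331 to 102310 FPKM in LD, 52260 to 68555 FPKM in TAC and 65302 to 71881 FPKM in sham, and the part of this in the members' values was not tested.

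The SD within groups was lower for each of the 9 genes than for the median tested gene, but genes of like level also had lower SDs, with medians of 0.261 to 0.339. The SD within groups on the log2 scale was 0.109 for Ckb, which was lower than in all but 1.82% of 275 other genes of like mean FPKM, whose median SD was 0.311. It was 0.157 for Slc25a3, 0.172 for Slc25a4, 0.191 for Slc6a8, 0.209 for Ckmt2 and 0.221 for Ckm. Ak1 (0.254), Vdac1 (0.268) and Slc25a5 (0.285) were closer to the median of 0.371 over all tested genes, and 32.8%, 37.8% and 43.8% of the genes of like level had a lower SD than these 3, in that order. The small spread of Ckb does not enter its test unchanged, since limma draws each gene's spread towards the common trend.

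**Figure D4:**
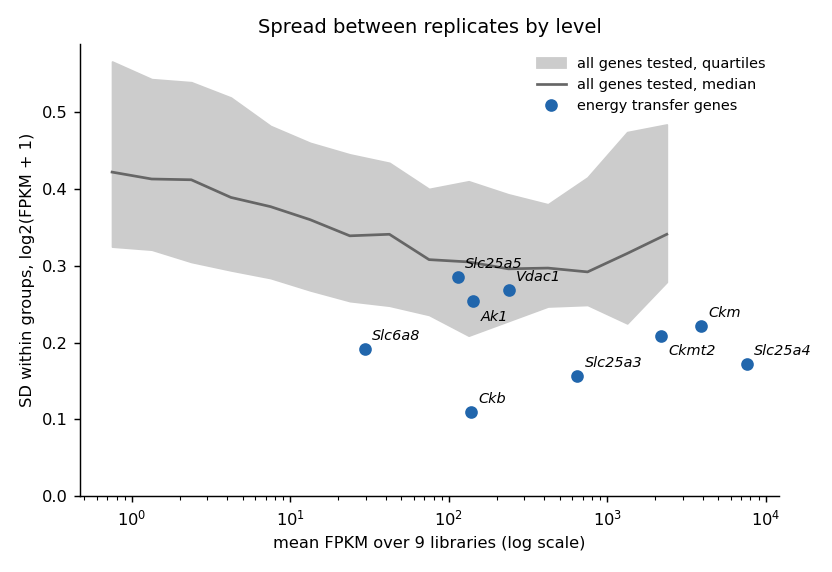
SD within groups of log2(FPKM + 1) (vertical axis) against the mean FPKM over 9 libraries (horizontal axis, log scale); the line is the median and the grey band runs from the lower to the upper quartile of all tested genes, in bins of at least 20 genes, and blue points are the 9 genes. Ckb lies lowest, at 0.109, and Slc25a5 highest, at 0.285.

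Some other genes followed the members closely over the 9 libraries, by Pearson's r of log2 values among 4738 genes with a mean FPKM of at least 10. This is a description of libraries that differ in depth and in cell content, and the values were picked as the highest of all genes searched. Nearest to Ckm were Fitm2 (0.961), Dctn1 (0.942) and Yipf3 (0.936), and nearest to Ckmt2 were Eif3i (0.897), Cmbl (0.888) and Asnsd1 (0.857). Ckb was followed by Dnajb11 (0.962), Chmp3 (0.961) and Anxa1 (0.949), and Slc6a8 by Prcc (0.955), Fam89b (0.937) and Rpl3l (0.926). Slc25a4 had as neighbours Ndufa4 (0.945), Fh1 (0.921) and Idh3b (0.906), which encode a protein of respiratory complex IV and enzymes of the tricarboxylic acid cycle. Slc25a5 had Psmb7 (0.906), Tomm5 (0.896) and Psmc4 (0.895), and Slc25a3 had Ngdn (0.966), Syngr2 (0.918) and Sgta (0.902). Vdac1 was close to Pcna (0.985) and Ccl6 (0.933), and Ak1 to Rangrf (0.974), Rps2 (0.950) and Hopx (0.945).

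A list of 31 other genes of energy transfer held creatine synthesis enzymes, other adenylate and nucleoside phosphate kinases, other carriers and channels, and hexokinases. Of these 22 were tested, and the 9 untested ones had mean levels of at most 0.535 FPKM; among them were Ckmt1, the ubiquitous mitochondrial creatine kinase, at 0.147 FPKM, Gatm, which makes the precursor of creatine, at 0.0572 FPKM, and Slc25a31, a carrier known from testis. Gamt, which completes creatine synthesis, averaged 10.5 FPKM, Vdac2 197 and Vdac3 137 FPKM. Of the 22 tested, 7 were above and 15 below 0 in TAC against sham (median -0.151), beside 50% of all tested genes above 0 (median 0). In LD against TAC 14 were above and 8 below (median 0.103), beside 39.6% of all tested genes above 0 (median -0.103). In LD against sham 8 were above and 14 below (36.4% above, median -0.106), near the 37.2% and -0.109 of all tested genes. None of the 22 passed limma's adjusted threshold in any comparison, and 0 had an unadjusted p under 0.05.

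Nme2, a nucleoside diphosphate kinase, had 801, 932 and 1006 FPKM in LD hearts and 765, 677 and 612 FPKM in TAC hearts, so that all LD values were higher, by a log2 difference of 0.41 ± 0.21 (SE; adjusted p = 0.579). Ak3, the adenylate kinase of the matrix that uses GTP, had 17.1, 17.1 and 16.8 FPKM in LD hearts and 17.1, 29.8 and 33.0 FPKM in TAC hearts, a difference of -0.57 ± 0.30 (adjusted p = 0.583). These were the 1 list gene of 22 that lay wholly higher in LD than in TAC and the 1 that lay wholly lower, beside 3.73% and 8.14% of all tested genes. For Ak3 the gap was smaller than the digits given, with 17.1 FPKM in LD replicates 1 and 2 and in TAC replicate 1. Also among the 4 smallest p in LD against TAC were Guk1 (0.71 ± 0.34, adjusted p = 0.569) and Cmpk1 (-0.59 ± 0.36, adjusted p = 0.628), which phosphorylate GMP and pyrimidine monophosphates. In TAC against sham, Hk2, a hexokinase that binds mitochondria, had 11.1, 14.9 and 14.9 FPKM in TAC hearts and 20.8, 18.0 and 16.8 FPKM in sham hearts, a gap between the groups with a difference of -0.42 ± 0.25 (adjusted p = 0.974). Of the 22 tested list genes 3 lay wholly lower in TAC than in sham and 0 wholly higher, beside 4.62% and 5.22% of all tested genes. Also named there by smallest p were Nme3 (-0.47 ± 0.26, adjusted p = 0.966) and Nme6 (-0.37 ± 0.25, adjusted p = 0.991). In LD against sham they were Cmpk1 (-0.63 ± 0.36, adjusted p = 0.875), Slc25a23, an ATP-Mg and phosphate carrier (0.44 ± 0.27, adjusted p = 0.875), Guk1 (0.55 ± 0.34, adjusted p = 0.875) and Hk2 (-0.30 ± 0.25, adjusted p = 0.881). Slc25a23 had 13.7, 16.1 and 20 FPKM in LD hearts and 10.8, 12.0 and 12.6 FPKM in sham hearts. It was the 1 list gene of 22 wholly higher in LD than in sham, and 0 were wholly lower, beside 4.47% and 8.76% of all tested genes.

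**Figure D5:**
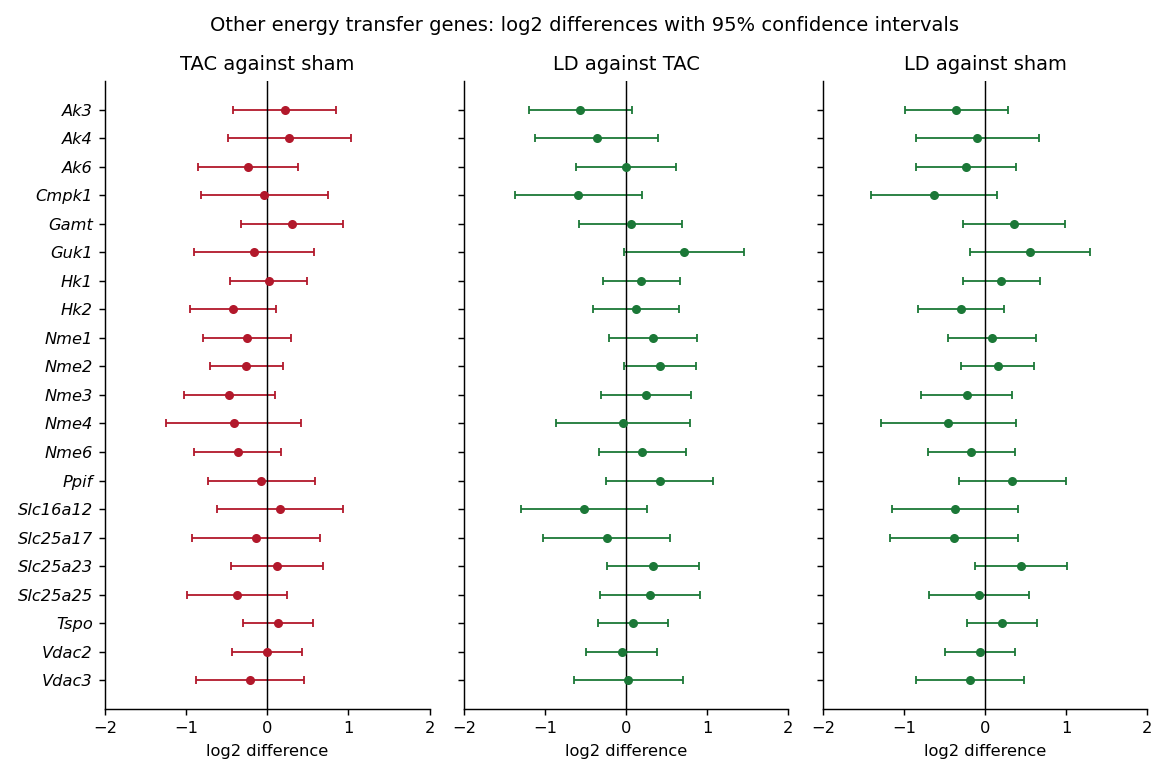
Log2 differences of group means of log2(FPKM + 1) (points) with 95% confidence intervals (bars) for 21 other energy transfer genes that were tested, in TAC against sham, LD against TAC and LD against sham; a value above 0 is higher in the group named first. All intervals include 0, and the point farthest from 0 is Guk1 in LD against TAC, at 0.71.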

How the data were processed

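The submitters' processing notes name fastp 0.20.0, CASAVA 1.8, Cufflinks 2.2.1, HTSeq 0.7.2, DESeq and HISAT2 2.1.0, and build GRCm38; the step that each served is not given in the sources used here. FPKM of 21989 symbols were deposited, with 1 column for each of 9 samples. For 100% of 16262 genes above 0, values were whole multiples of a step (tolerance 0.001), which gave library totals and fragments. Genes above 0 in only 1 library meet this of necessity, and those above 0 in few libraries nearly so, as a wide range of multiples was searched. The step was 1 fragment, except in TAC replicates 2 and 3 and sham replicates 1 and 3. In those libraries the deposited FPKM moved in steps of 0.5 fragments, and counting those steps as whole fragments would double their totals.

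Values were analysed as log2(FPKM + 1), which understates changes of low genes. limma 3.58.1 (R 4.3.3) fitted the 3 groups together (empirical Bayes with a trend on the mean, 6 residual degrees of freedom, two-sided moderated tests, Benjamini-Hochberg over all 11380 genes with FPKM at least 1 in at least 3 libraries) and was tested on simulated data. Ratios and shares were compared by exact permutation over libraries. Errors are SDs over mice or limma's standard errors, and per the labels the 3 samples of a group are biological repeats. GENCODE M21 gave coordinates, and RefSeq promoters matched 8 of the 9 members. Members, lists and tests were chosen with earlier results of these data known. All members are named in every comparison, as are the 4 list genes of smallest p and the 3 nearest genes of each member, apart from 2 genes that are not reported here.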

Additional observations from a re-analysis of the deposited data

How the results depend on the processing

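Across 21 alternatives (pseudocount, filter, scaling, fit, weights, recovered fragments, libraries left out), 0 of 567 member values passed the adjusted threshold; the smallest adjusted p was 0.263. Only Vdac1 in LD against TAC had an unadjusted p under 0.05, with quality weights (0.0266) and without TAC replicate 1. Signs changed in 47 values, most of them (30) in LD against sham, where differences were near 0. They changed by at least 1 standard error in 2: Slc25a5 in LD against TAC, between -0.160 and 0.224 over the libraries left out, and Ak1 in LD against TAC, between -0.043 (without TAC replicate 3 and LD replicate 3) and 0.367 (without TAC replicate 2); the cause was not tested. Of 120 ratio and share values, 0 moved by as much as the pooled SD of the 2 groups compared and 12 changed sign.

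Genes called over the whole table, 0 at first, were 2 in TAC against sham and 3 in LD against sham with an FPKM minimum of 5, 9 in TAC against sham and 135 in LD against sham with quality weights, and 10 in LD against sham with only the groups compared; leaving out a library gave 0 to 13 in TAC against sham (13 without TAC replicate 1, 1 each without TAC replicate 2 or sham replicate 3) and 0 to 8 in LD against sham (8, 2 and 1 without TAC replicates 1, 2 and 3, 1 without sham replicate 3). The cause was not tested. LD against TAC had 0 under each of the 21 alternatives. With the replicate number as a block all 3 counts were 0. Same-numbered libraries correlated between -0.236 and 0.146 in their deviations from group means. These values show no sign of pairing by number, and with 3 libraries a group they cannot exclude it.

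The number of mice, 3 a group, limits the precision, and each member rested on 406 fragments or more in every library; fragments are not independent molecules, so such counts cover counting error only.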
